A study of Bos taurus with 2 samples.

Results

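RAB small GTPases are the largest family of Ras-like proteins, and the array used here names many of them. The members were all gene names that read RAB followed by a digit, which gave 62 of the 32429 gene names on the array, with 130 probes on 136 spots. Of these names, 55 are GTPases and 7 are proteins that bind or regulate them (RAB11FIP2, RAB11FIP3, RAB11FIP5, RAB3GAP1, RAB3GAP2, RAB3IL1 and RAB3IP). The family name therefore does not cover 7 names of the rule. These are counted among the partner genes, where only RAB3IL1 of them is described. The study compared testis of crossbred bulls (Holstein Friesian crossbreds) with testis of Zebu bulls of the Tharparkar breed. In each group, RNA from the testes of 3 bulls aged 24 months was pooled, labelled with Cy3 and hybridized to 1 array. With 1 array of pooled RNA per group, no difference given here has a replicate check and no test between the groups was made; the precision is limited by there being 2 arrays.

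A RAB GTPase acts as a switch. Loaded with GTP by an exchange factor, it sits on 1 kind of membrane through its lipid tails and recruits effectors that move, tether or fuse vesicles, and a GTPase activating protein turns it off, after which it is carried back through the cytosol. In testis, such traffic builds the acrosome of the spermatid from Golgi vesicles, remodels the junctions between Sertoli cells and germ cells, and clears the cytoplasm that spermatids shed. RAB3A and RAB27 proteins are known for their part in the release of the acrosome.

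Signals are log2 values of the scanner's processed intensity after subtraction of the 75th percentile of the array, so that 0 is the level of that percentile, and every difference is crossbred minus Zebu. Levels are compared only within a probe, because each 60-base probe binds with its own strength. A probe is called measured on an array where the scanner software marked it as well above background, and dim where it did not. Each gene is represented by its brightest probe, the one with the largest mean log2 signal, and counts as higher or lower from a difference of 1.5 in size, a 2.83-fold change, provided the brighter array measured it. Replicate spots of 5960 probes on the array gave an SD of 0.33 for a difference, which covers spotting and scanning but not labelling, pooling or animals. Among the RAB names, 5 probes had 2 spots measured on both arrays, and the differences of their spots lay between 0.059 and 0.15 apart.

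The probes of the members on which the results turn are shown by a stretch of 30 bases each, with positions on HGSC Btau_3.1 as the array annotation gives them. RAB9B had the largest rise, and its first probe lies at chrX:33982494-33982553 and its second at chrX:33982117-33982176, both on the plus strand. The second is shown from base 21 to 50, beside the first 30 bases of a probe of its paralog RAB9A (chrX:81128363-81128422, minus strand), because these 2 shared the longest run between probes of different RAB names. Capitals mark that run of 17 bases.
RAB9B, first probe: ctctattagtgcacacacatacaaaaggat
RAB9B, second probe: atctacTACGCAGATGTGAAAGAccctgag
RAB9A, second probe: atTACGCAGATGTGAAAGAgcccgaaagct
The only probe of RAB27B lies at chr24:56333065-56333124 on the plus strand. The 3 probes of RAB20 lie on the minus strand, the brightest at chr12:83290006-83290065 and the others at chr12:83260159-83260218 and chr12:83260250-83260309, so that 29847 bases separate the outermost starts. They are shown because they gave different answers for the same gene.
RAB27B: tcacttccaaaaagagcgataaaccccacc
RAB20, brightest probe: aagatcgtgcttttgggggacatgaacgtg
RAB20, second probe: aagaatgtggacctactgttcgaaaccgtg
RAB20, last probe: ttacaagaagatcctcaagtacaagatgct

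Of the 55 RAB GTPase genes, 51 were measured on both arrays, 2 (RAB23 and RAB38) on the Zebu array only and 2 (RAB3A and RAB3B) on neither. RAB9B, RAB20 and RAB27B, 3 genes, were higher in crossbred testis, beside 7.12% of the 24751 gene names detected on at least 1 array. No RAB GTPase gene was lower, beside 2.92% of the gene names. RAB7L1, with -1.48, lay just short of the threshold, and shifting the arrays by a percentile over well-measured probes took it to -1.51. At a difference of 1 or more, RAB2B joined the higher genes, which made 4 beside 12.8% of the gene names, and RAB7L1, RAB37 and RAB7B, 3 genes, were lower beside 8.87%. Read beside these shares of the whole array, the counts do not set the RAB GTPases apart.

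The median difference over the 51 genes was -0.19, beside -0.04 over all 22842 gene names measured on both arrays. The middle 50% of the RAB GTPase genes lay between -0.51 and 0.39, and that of all gene names between -0.49 and 0.45. Of the 51, 26 differed by less than 0.5 in size, which is 51.0% beside 52.2% of all gene names, and 20 differed by less than the SD of replicate spots. The sign was negative for 30 genes and positive for 21. As in any bulk tissue, fewer cells of a type and less RNA per cell cannot be told apart here.

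**Figure D1:**
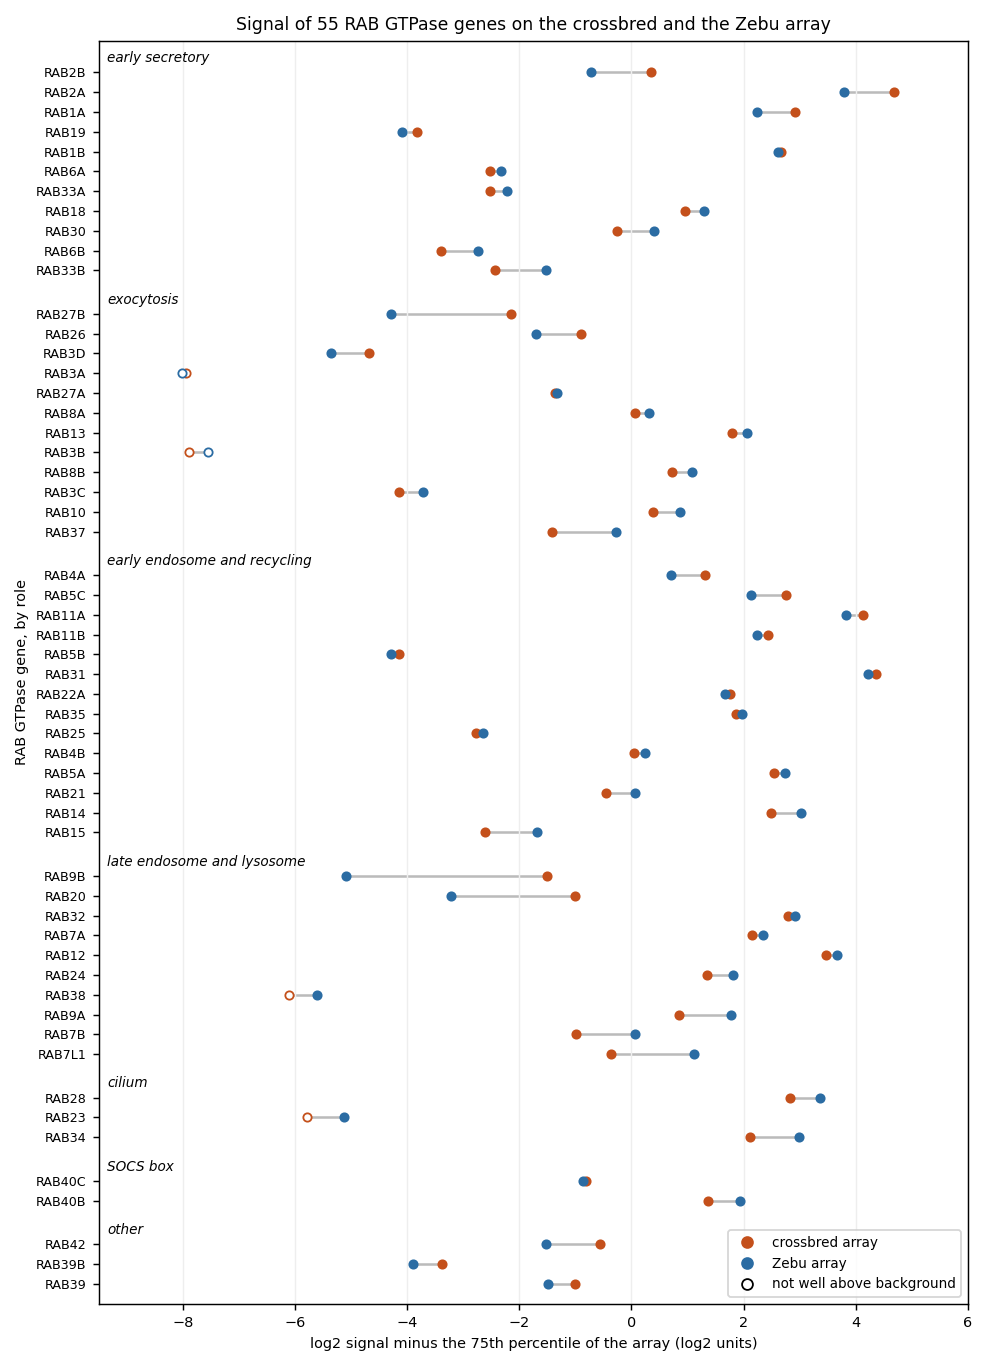
Normalized log2 signal of 55 RAB GTPase genes on the crossbred array (orange) and the Zebu array (blue), each read from its brightest probe and grouped by role, with open circles where the probe was not well above background. The widest gaps belong to RAB9B, RAB20 and RAB27B, with the crossbred array brighter by 3.58, 2.21 and 2.13; positions along the axis are not comparable between genes.

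Among the RABs of the early secretory pathway, 11 genes were measured on both arrays and their median difference was -0.20. RAB1A, which moves cargo from the endoplasmic reticulum to the Golgi, had a signal of 2.91 in crossbred and 2.24 in Zebu testis. Its 3 probes differed by 0.67, -0.17 and 1.03, so they did not share a sign. Its paralog RAB1B had 2.68 and 2.61, a difference within the SD of replicate spots.

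RAB2A, which tethers vesicles at the Golgi, had 4.68 in crossbred and 3.80 in Zebu testis. All 3 of its probes were brighter on the crossbred array, by 0.88, 0.86 and 0.60, the first and the second sharing a run of 33 bases. RAB2B had 0.35 and -0.73, and its 2 probes differed by 1.07 and 1.38, so that both RAB2 genes lay on the crossbred side at every probe without reaching 1.5. RAB6A, a Golgi RAB of retrograde transport, had -2.52 and -2.32 at its brightest probe and differed there by -0.20. Its other probes differed by -0.79 and -1.62, and the last was dim in crossbred testis, at -5.66. That value lies above the lowest measured on the crossbred array, -5.78. Its 3.08-fold lower signal in crossbred testis is therefore a plain difference from a dim value and not a lower limit.

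RAB18, found on lipid droplets and the endoplasmic reticulum, was measured at 2 probes, which differed by -0.34 and -0.51. RAB33B, a Golgi RAB that binds the autophagy protein ATG16L1, had -2.44 and -1.53. Its first and second probes differed by -0.91 and -0.97. Another was dim on the crossbred array, which gives a bound of at least 1.81-fold lower in crossbred testis, and the last was dim on both arrays. The first and the second share 56 bases, which capitals mark in the 30 bases shown.
RAB33B, first probe: tttgTTGTGAAATAGCATCACTGTAATTTT
RAB33B, second probe: TTGTGAAATAGCATCACTGTAATTTTGCCC
These 2 lie 4 bases apart on chromosome 17, so their likeness is a repeat of 1 measurement rather than a second one.

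The RABs of exocytosis held 12 genes, of which 10 were measured on both arrays, with a median difference of -0.25. RAB27B, which docks secretory and lysosome-related vesicles at the plasma membrane, had -2.15 in crossbred and -4.29 in Zebu testis. The difference of 2.13 is a 4.39-fold higher signal in crossbred testis. It rests on the single spot of 1 probe, and its 18 nearest spots had a median difference of 0.03. With another background correction (normexp) it fell short of the threshold, at 1.43.

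RAB27A, the closest relative of RAB27B, did not share this difference. Its brightest probe had -1.37 in crossbred and -1.32 in Zebu testis, and another probe, measured in Zebu testis only, had -6.56 and -5.16. The latter gives a bound of at least 1.54-fold lower in crossbred testis. RAB3A, the RAB best known from synaptic vesicles and the acrosome, was not well above background on either array, with -7.95 and -8.01, and RAB3B was likewise dim.

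RAB3D, a RAB of secretory granules, had -4.68 in crossbred and -5.36 in Zebu testis, a difference of 0.68 that normexp brought down to 0.26, within the SD of replicate spots. RAB3C, a neuronal RAB3, had -4.15 and -3.71 at its brightest probe, and its difference under normexp was -0.12. Another of its probes had -7.96 and -5.27 and was dim on the crossbred array, which gives a bound of at least 1.42-fold lower in crossbred testis. A probe sharing 21 bases with it was dim on both arrays.

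RAB37, a RAB of secretory granules, had -1.41 in crossbred and -0.28 in Zebu testis, and its difference of -1.13 was the second largest fall among the RAB names. RAB8A and RAB8B bring vesicles to the plasma membrane and to cell junctions. RAB8A had 0.07 and 0.31, and RAB8B had 0.72 and 1.07, while its other probe differed by 0.49, so the sign for RAB8B depended on the probe. RAB10, which delivers glucose transporters and basolateral cargo, had 0.38 and 0.87, and its probes differed by -0.49 and -0.62. RAB13, a RAB of tight junctions, had 1.79 and 2.05, and its 4 probes differed by between -0.34 and -0.16.

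The RABs of early endosomes and recycling had a median difference of -0.01 over 14 genes, and no brightest probe among them lay beyond 1 in size. RAB5A, the RAB of early endosome fusion, had 2.54 in crossbred and 2.75 in Zebu testis. Its 3 probes differed by -0.21, 0.41 and 0.66, so they did not share a sign. RAB11A, the main RAB of recycling endosomes, had 4.14 and 3.83, and its probes differed by 0.31 and 0.58. RAB25, an epithelial relative of RAB11A, had -2.77 and -2.65, a difference within the SD of replicate spots.

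RAB5B showed a large difference at 1 of its 2 probes. At chr5:61888959-61889018, its brighter probe had -4.15 in crossbred and -4.28 in Zebu testis. At chr5:61887470-61887529, the other had -7.97 and -4.47, which gives a bound of at least 2.48-fold lower in crossbred testis. Both are shown because the spot of 1 of them lies in a dark patch of the crossbred array.
RAB5B, brighter probe: ctttcttcactttgtattataggtgcaaga
RAB5B, probe in the dark patch: cttcttgttctagcttagaattttggggaa
The spot of the second probe lies in row 71 and column 43, inside that patch, which covers rows 54 to 99 and columns 35 to 46. The median difference over its 544 spots was -1.01, and 210 were lower by 1.5 or more, while the 18 spots nearest to the RAB5B spot had a median of -2.56. No other spot of the 136 lay in this patch or in a bright patch of 105 spots, of which 48 were higher by 1.5 or more. RAB5B was also the only RAB name with a neighbour median beyond 1 in size, so without the patch it has the difference of 0.13 alone.

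**Figure D2:**
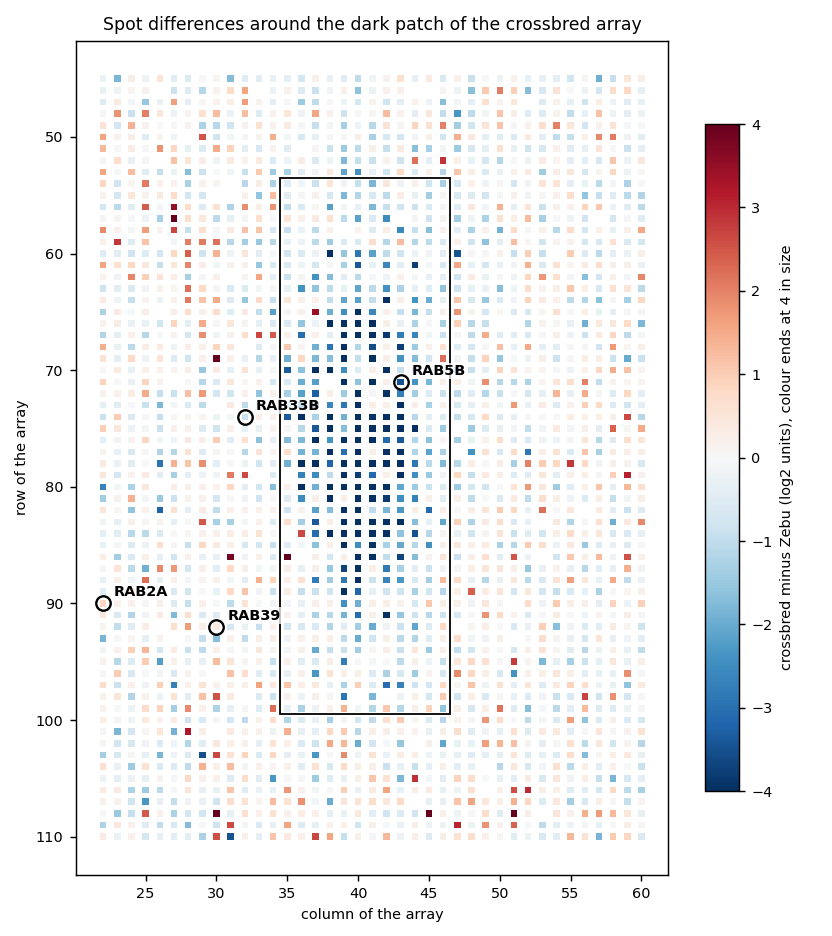
Difference of each spot, crossbred minus Zebu on the log2 scale, by row and column of the array around the dark patch (box), with the spots of RAB names circled; white gaps hold no probe spot. The RAB5B spot in row 71 and column 43 lies among strongly negative spots, while RAB2A, RAB33B and RAB39 lie outside the box.

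RAB35, a RAB of fast recycling, had 1.86 in crossbred and 1.97 in Zebu testis at its brightest probe, the mean of 2 spots that differed by -0.09 and -0.15. Its other probe, 499 bases away on chromosome 17, had 0.15 and -1.70, a difference of 1.85. RAB4B, a RAB of rapid recycling, likewise had 0.04 and 0.23 at its brightest probe and a difference of 1.45 at the other. Neither gene counts as higher, because the brightest probe of each did not reach 1.5 and differed by less than the SD of replicate spots.

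RAB14, which links the Golgi with endosomes, had 2.49 in crossbred and 3.03 in Zebu testis. Of its 4 probes, 3 differed by between -0.72 and -0.54 and the fourth by 0.36. RAB15, an endosomal RAB, had -2.61 and -1.69, and its difference of -0.92 was among the 5 largest falls. A probe of RAB15 that shares 57 bases with the brightest differed by -1.04, again a repeat of 1 measurement.

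The RABs of late endosomes and lysosomes held the widest spread, from -1.48 to 3.58 over 9 genes measured on both arrays. RAB9B, a close relative of the late endosome RAB9A, had -1.51 in crossbred and -5.09 in Zebu testis at its first probe. The difference of 3.58 is an 11.9-fold higher signal in crossbred testis, and normexp brought it down to 2.15. This Zebu value lay close to the lowest measured on that array, -5.94, so the size of the fold is uncertain. At its second probe RAB9B had -1.96 and -5.09, a difference of 3.12, so 2 probes that do not overlap gave the same direction, and the spots around the first had a median of -0.09.

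RAB9A, which returns receptors from late endosomes to the Golgi, went the other way. It had 0.85 in crossbred and 1.78 in Zebu testis, and its probes differed by -0.94 and -1.16. The second probes of the genes share the 17 bases shown above and still differed in opposite directions, by -1.16 for RAB9A and 3.12 for RAB9B. Both genes lie on the X chromosome, as does RAB33A of the Golgi group, which differed by -0.30.

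RAB20, a RAB of phagosome maturation, had -1.01 in crossbred and -3.22 in Zebu testis at its brightest probe, a 4.62-fold higher signal in crossbred testis. Its next probe had -2.86 and -3.14, and the last had -3.80 and -3.40. Their differences of 0.27 and -0.40 do not share the rise, and all 3 probes were measured on both arrays. Averaged over its probes RAB20 differed by 0.69, below the threshold, so its place among the 3 higher genes rests on the probe that lies far from the others.

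RAB7L1, listed as RAB29 in the ARS-UCD2.0 gene table and known as a substrate of the kinase LRRK2, had -0.36 in crossbred and 1.12 in Zebu testis. Its difference of -1.48 was the largest fall among RAB names measured on both arrays, and it rests on 1 probe. RAB7B, which moves cargo from endosomes to the Golgi, had -0.98 and 0.06, and its probes differed by -1.04 and -0.75. RAB7A, the main RAB of late endosomes, had 2.16 and 2.35, with differences of -0.19, -0.29 and 0.01 at its probes. RAB12, which sends receptors to lysosomes, had 3.47 and 3.67, and its probes differed by between -0.56 and -0.19.

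The 3 ciliary RABs had larger values on the Zebu array at every probe. RAB28, which acts at the cilium of photoreceptors, had 2.83 in crossbred and 3.36 in Zebu testis. RAB23, a RAB of Hedgehog signalling, had -5.79 and -5.14 and was measured on the Zebu array only, and its difference under normexp was -0.14, within the SD of replicate spots. RAB34, needed for building cilia from inside the cell, had 2.11 and 2.99, and its 3 probes differed by between -1.18 and -0.54. None of them reached 1.5.

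RAB40B and RAB40C carry a SOCS box, by which they join ubiquitin ligases. RAB40C had -0.82 in crossbred and -0.87 in Zebu testis at its brightest probe. Its other probe differed by -0.36, so the sign for RAB40C depended on the probe. RAB40B had 1.37 and 1.94 at its brightest probe, with a difference of -0.57, and 0.96 at the other, where the neighbouring spots had a median of 0.57. The 3 GTPases without a group of their own, RAB39 (RAB39A in the same gene table), RAB39B and RAB42, differed by between 0.47 and 0.95.

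**Figure D3:**
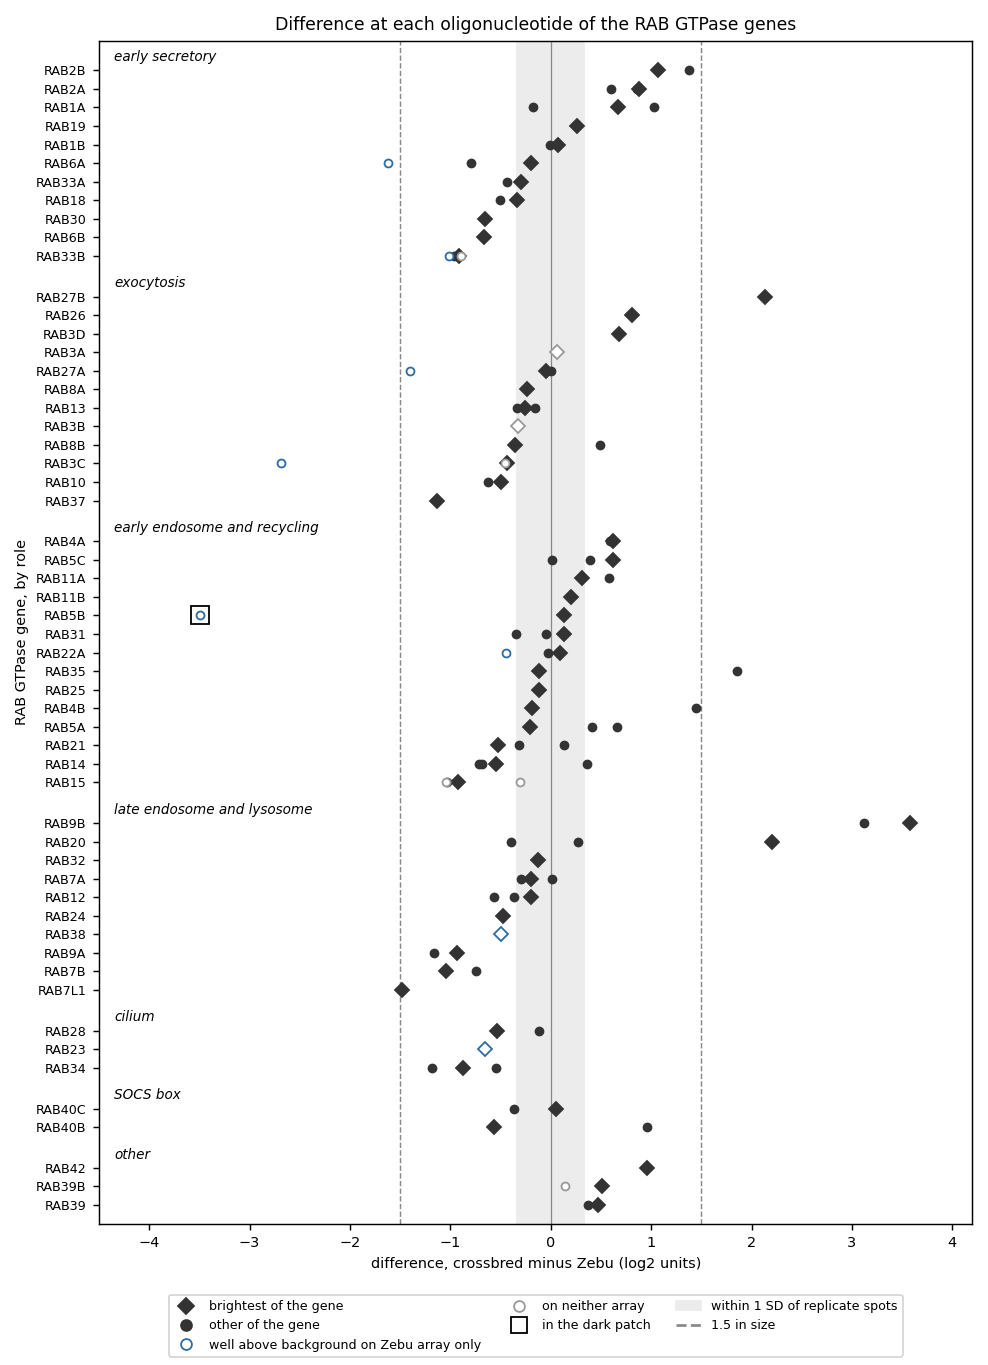
Difference, crossbred minus Zebu on the log2 scale, at each probe of the 55 RAB GTPase genes, with diamonds for the brightest probe of a gene, open symbols where an array was not well above background, a grey band of 1 SD of replicate spots and dashed lines at 1.5 in size. RAB9B lies beyond the line at both probes, while RAB20, RAB35, RAB4B and RAB40B each have probes over 1.5 apart.

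Counted by probe, the 55 genes had 114 probes, of which 99 were measured on both arrays, 8 on the Zebu array only, 7 on neither and none on the crossbred array only. On the whole array 4.43% of probes were measured in Zebu testis only and 2.12% in crossbred testis only. Of the RAB probes, 5 were higher by 1.5 or more, beside 6.14% of the 39804 probes detected on the array, namely 2 of RAB9B and 1 each of RAB20, RAB27B and RAB35. Lower by that much were 3, beside 2.99%, namely those of RAB3C, RAB5B and RAB6A, and each of these was dim on the crossbred array. The bounds of the RAB3C and RAB5B probes, 1.42-fold and 2.48-fold, fall short of that size. The 3.08-fold of the RAB6A probe is a plain difference from a dim value. It was not matched by the 2 probes of RAB6A measured on both arrays.

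Probes of the same gene were close for most members. In the 34 genes with 2 or more probes measured on both arrays, the median range of the differences was 0.34, beside 0.39 over 8185 gene names of the array. The range passed 1.5 in RAB20, RAB35, RAB4B and RAB40B, 4 genes or 11.8%, beside 7.61% of the gene names. Of the 48 probes other than the brightest, 32 had its sign, which is 66.7% beside 74.3%. Where 2 probes of a gene shared 20 bases or more, as in 5 pairs measured on both arrays, they differed by at most 0.12. Across the 99 probes the differences had a Pearson correlation of 0.17 with the GC content of the probe, which ran from 35% to 55%, and of -0.07 with the mean signal, both across probes of the same 2 arrays.

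The partner genes were taken from lists of the RAB cycle, which held 111 names of the array. Of these, 101 were measured on both arrays, and their median difference was 0.07, beside -0.04 over all gene names. The sign of this median turned under quantile normalization. Past 1.5 on the crossbred side were 6 names and on the Zebu side none, beside 7.12% and 2.92% of all gene names, and 2 of the 6, EXPH5 and TBC1D30, were read from spots in marked patches and dim on the Zebu array. With the patches left out 4 names remained.

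In prenylation and delivery, 7 of 8 names were measured on both arrays, with a median difference of -0.46. RABGGTA, a subunit of the transferase that attaches the lipid tails, had 2.87 in crossbred and 2.66 in Zebu testis, but differed by -0.73 at its other probe, so its sign depended on the probe. The gene of the other subunit, RABGGTB, differed by -0.99. The brightest probe of RABGGTB lay outside the dark patch, but 1 of the 2 spots of its other probe lay inside, and with the mean of all probes it differed by -2.23, although that other probe was not measured on both arrays. CHM, the escort protein of new RABs, was measured on the Zebu array only, at -4.83, and its difference under normexp was -0.30, within the SD of replicate spots. Its relative CHML had -2.21 and -1.32.

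GDI2, which extracts RABs from membranes, had 4.11 in crossbred and 4.57 in Zebu testis, and its 4 probes lay between -0.50 and -0.23, all on the Zebu side. RABAC1, a membrane protein that helps RABs reach their membranes, had 2.88 and 2.75. RABIF, a chaperone of exocytic RABs, had 3.16 and 1.41, a 3.37-fold higher signal in crossbred testis from 1 probe.

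Among exchange factors, 25 of 27 names were measured on both arrays, with a median difference of 0.03 and 1 higher name. SBF1 had -1.88 in crossbred and -5.35 in Zebu testis, so it rose by 3.47, and by 1.98 under normexp, but by 0.07 at its other probe. The spots around the first had a median of 0.66. RAB3IL1, which loads RAB3A and RAB8 proteins, had 0.79 and -0.64, and its rise of 1.43 was among the 5 largest rises of the RAB names.

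Among GTPase activating proteins, 35 of 37 names were measured on both arrays, with a median difference of 0.11. TBC1D21, a protein of this family known from testis, had 3.70 in crossbred and 1.19 in Zebu testis. This was a 5.67-fold higher signal in crossbred testis, and its other probe differed by 2.45. TBC1D30 had -3.51 and -6.10, dim on the Zebu array, and its difference was 0.95 under normexp. Its spot lies in the bright patch, with a neighbour median of 1.37, and no probe of this gene was measured on both arrays, so its direction was not settled here.

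Among effectors, 29 of 34 names were measured on both arrays, with a median difference of -0.15. RIMS1, a scaffold that binds RAB3 at sites of release, had -1.35 in crossbred and -3.01 in Zebu testis, so it rose by 1.66, with 0.64 at its other probe, and under normexp it fell short of the threshold, at 1.27. EXPH5, which binds RAB27 proteins, had -3.71 and -7.69 and was dim on the Zebu array, and its difference fell short of the threshold under normexp, at 1.05. The EXPH5 spot lies inside the dark patch, although its nearest spots had a median of -0.09. With the marked patches left out, EXPH5 differed by 0.03. No probe of EXPH5 was measured on both arrays. Its size is therefore not given as a fold. The 5 Rab-like names on the array had a median difference of 0.41 and none passed 1.5.

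Markers of the cell types of testis differed between the arrays too. All 6 spermatid markers were brighter on the crossbred array, with a median difference of 1.73, 4 of them past 1.5, and a summed signal of 615090 against 334420. PRM1 was the brightest of them. Sums and brightest names of marker lists describe signals and not amounts of RNA, since probes bind with their own strength. The 4 spermatocyte markers measured had a median of 0.43 and summed to 27969 against 21272, with SYCE1 the brightest.

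Somatic markers of the tubule and the interstitium lay on the other side. The 6 Leydig cell markers had a median difference of -0.79 and summed to 103220 against 163390, with INSL3 the brightest and 2 past -1.5. INSL3 differed by -0.44, and the spots around it had a median of -0.46, so its fall did not exceed that of its neighbours. The 5 Sertoli cell markers measured had a median of -0.90 and summed to 30664 against 52629, with CLDN11 the brightest and 1 past -1.5. The 5 peritubular and smooth muscle markers had a median of -0.77 and summed to 34441 against 63592, with ACTA2 the brightest. These 16 markers were all brighter on the Zebu array, although LHCGR, a Leydig cell marker, differed by only -0.10, within the SD of replicate spots.

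Blood-borne and vessel markers were mixed. The 5 endothelial markers had a median difference of 0.08 and summed to 1118 against 1201, with VWF the brightest. Of 5 macrophage markers, 4 were measured on both arrays, with a median of 0.01 and 1 past -1.5, and all 5 summed to 11142 against 9200, with CD14 the brightest. Of 5 B and plasma cell markers, 4 were measured on both arrays, with a median of 0.68 and 2 of the 5 past 1.5, and they summed to 6145 against 1901, with IGJ the brightest. Of 4 T cell markers, 3 were measured on both arrays, with a median of -0.56, and the 4 summed to 2576 against 4069, with CD3D the brightest. That median is the value of CD3D, whose probes differed by between -0.56 and 0.55. Probes of CD14 differed by between -0.25 and 0.86 and those of VWF by between -0.50 and 0.13. The sign for each of CD3D, CD14 and VWF thus depended on the probe. No marker on the array was dim on both arrays. The part of these cell types in the RAB differences was not tested.

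**Figure D4:**
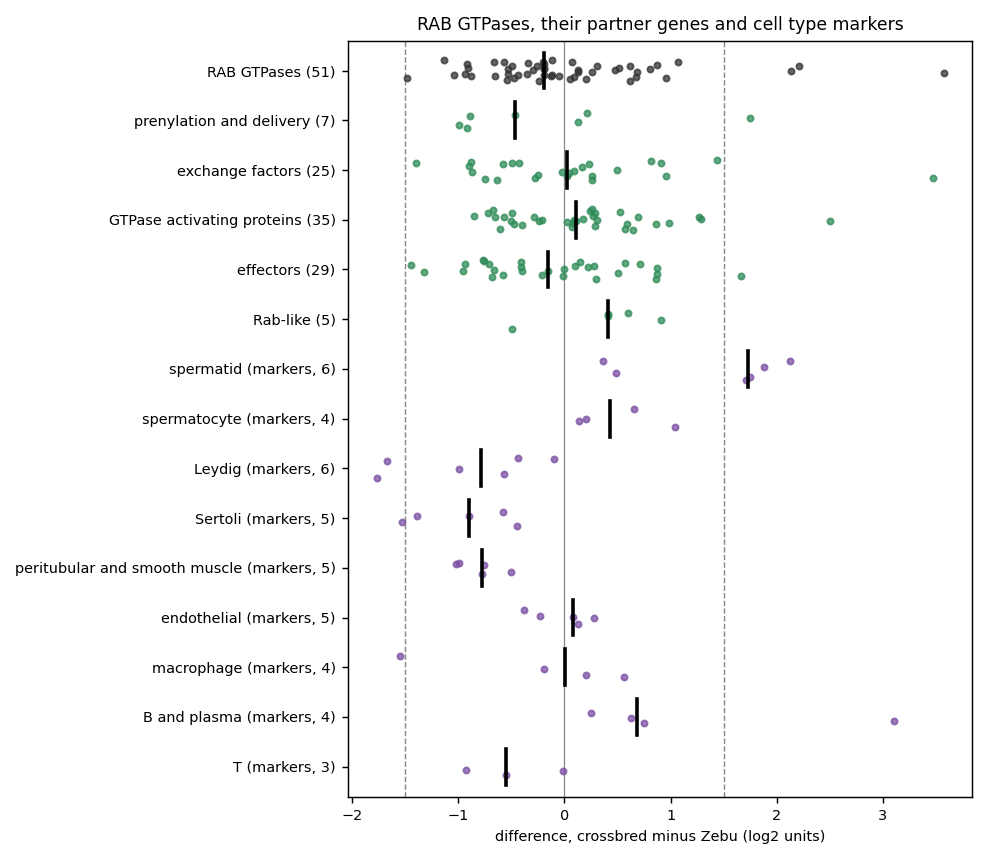
Difference, crossbred minus Zebu on the log2 scale, of RAB GTPase genes (black), partner gene lists (green) and cell type markers (purple) measured on both arrays, with the number of genes in brackets, a bar at each median and dashed lines at 1.5 in size; points are spread vertically at random within a row. RAB GTPases centre at -0.19, spermatid markers at 1.73, and Leydig, Sertoli and peritubular markers at -0.79, -0.90 and -0.77.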

How the data were processed

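The authors deposited for each spot a processed intensity, background-subtracted and detrended by Agilent Feature Extraction 11.5.1.1 per the file headers, and mean and local background intensities. They also deposited log2 values with medians of -3.00 (crossbred) and -3.01 (Zebu); set against the values computed here, 98.9% lay within 0.05, so they are log2 signals shifted by the 75th percentile of the array. Here, control spots and 13 outlier spots were left out, log2 processed signals of replicate spots were averaged, and each array's 75th percentile of all probes (1176 crossbred, 1233 Zebu) was subtracted. The median spot signal was 126 and 129 over a local background of 34 and 35.5, and 72.0% and 74.3% of 61657 spots were well above background. No spot was saturated. A bound sets the brighter value against the higher of the dim value and the lowest measured value of the dim array (-5.78 crossbred, -5.94 Zebu). Named are RAB genes past 1.5 at any probe, in a marked patch, among the 5 largest rises or falls, or with probes over 1.5 apart, and fixed well-known members; of partners, names past 1.5 and fixed genes. RAB1B, RAB33A, RAB33B, RAB34, RAB38, RAB39, RAB39B, RAB3B and RAB42 were added after their values were seen. Members and lists were chosen with earlier results of these data known. All 62 names matched the RefSeq gene table of ARS-UCD2.0. Alternatives changed background correction, normalization, probe choice, threshold, filter and places on the array. The steps were tested on simulated data. Python 3.11.15, numpy 2.4.6, pandas 2.3.3, scipy 1.17.1, matplotlib 3.10.9, R 4.3.3 and limma 3.58.1 were used.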

Additional observations from a re-analysis of the deposited data

How the results depend on the processing

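RAB9B was among the higher RAB GTPase genes in each alternative run. The count of 3 became 2 under normexp (without RAB27B, beside 4.16% of gene names) and 2 with the mean of all probes (without RAB20, beside 1634 of 24766 names), 5 with every probe counted and 11 at a linear fold of 1.5 (beside 21.4% of gene names). The count of 0 lower genes became 1 where the percentile was taken over measured probes only (RAB7L1, beside 3.04%), 2 with the mean of all probes (RAB3C and RAB5B, each through a probe dim on the crossbred array, that of RAB5B in the dark patch, beside 2.98%), 3 with every probe, 3 at a difference of 1 and 10 at a linear fold of 1.5 (beside 22.2% of gene names). The median difference lay between -0.23 and -0.12, and the largest shift of the median of all gene names was -0.03. Genes with probes over 1.5 apart fell from 4 to 2 under normexp (RAB20 and RAB35), and partner names past 1.5 from 6 to 3 under normexp and to 4 without the marked patches. With the mean of all probes 5 passed, without RIMS1 and TBC1D30 and with RABGGTB on the Zebu side, at -2.23. TBC1D30 changed sign, to -0.94 without the marked patches, to -0.93 without spots whose neighbours had a median beyond 1 and to -0.93 without spots of outlying background, because another of its probes then stood for the gene; none of its probes was measured on both arrays, so these values show no direction. With the mean of all probes, 8 of 47 named genes changed sign, among them RAB35, RAB4B, RAB5A and RAB40B. Under normexp the gene names split into 1030 higher and 169 lower, beside 1762 and 722, and the cause was not tested. Choosing the probe by linear signal, a percentile over spots and the filter on outlying background were added after seeing the data. Low signal over background limits RAB3A, RAB3B, RAB3C, RAB3D, RAB23, RAB38 and CHM, and bounds hold for the main background correction only. The Zebu values of RAB9B, -5.09 at both probes, and of SBF1, -5.35, also lay close to the lowest measured on that array, -5.94. Under normexp the rises of RAB9B, RAB20, RAB27B, SBF1 and RIMS1 moved by more than the SD of replicate spots, so their sizes are uncertain. No paired analysis was possible because each group has 1 array.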
